A study of Rattus norvegicus with 8 samples.

Results

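Glomerular RNA of 2 Dahl SS rats and 2 SHR rats, all 4 weeks old, was compared on Affymetrix rat genome arrays, 4 of the 8 arrays of the series. Members were all probe sets other than the array's own controls, which gave 31042 of 31099 probe sets and, with 1 probe set standing for each gene, 14217 genes. The Dahl SS rat (Dahl) is salt-sensitive, hypertensive and spontaneously proteinuric, and the spontaneously hypertensive rat (SHR) served as the hypertensive strain without proteinuria. In the study hypertension arose in both strains, to a like extent, from 8 weeks of age, later than the ages on these arrays. All rats were male and fed a low-salt diet, so a low salt intake was common to every group. Glomeruli were pulled with a magnet from the left kidney, and each group held 2 biological replicates, here called rats. At 4 weeks the Dahl rats had not yet become proteinuric in the study, and the 2 Dahl and 2 SHR rats of 6 weeks, the age at which proteinuria began, are used to show which of the early differences were still there.

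The glomerulus filters plasma through a fenestrated endothelium, a basement membrane and the interlocking foot processes of podocytes, and mesangial cells hold its capillaries together. It is still growing in young rats, by division of its endothelial and mesangial cells, while podocytes have mostly left the cell cycle. Dividing cells switch on genes in an ordered way, first those that copy DNA and then those that separate the chromosomes, while fasting and glucocorticoids switch on genes that release and burn fat and amino acids.

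Values are log2 intensities as deposited, so 1 unit is a doubling, and differences are Dahl minus SHR unless stated otherwise. A difference was called at an adjusted p of 0.05 or less in limma, over all probe sets. No detection calls were used here, and a fold over a dim group may be too small. Rats of the same strain at 4 weeks correlated at 0.995 over all probe sets, and a Dahl with an SHR rat of that age at 0.973 to 0.980. Podocyte markers were bright in all 4 rats: nephrin (Nphs1) lay at 11.84 to 12.23 and Wt1 at 10.83 to 11.19. Tubule RNA was also present, since the gluconeogenic enzyme gene Pck1, a proximal tubule marker, lay at 10.65 to 13.01. In whole glomeruli, fewer cells of a type and less RNA per cell cannot be told apart.

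At 4 weeks 3738 probe sets differed between the strains, 12% of those tested, with 1749 higher and 1989 lower in Dahl. Per gene, 1982 differed (13.9%): 1121 were higher (7.88% of genes) and 861 lower (6.06%) in Dahl. Of these, 866 were higher and 403 lower by at least 1.5-fold. The median difference over all genes was -0.05 at either age. Direction moved with brightness: over 4 groups of probe sets of equal size, from the dimmest to the brightest, 10, 107, 695 and 937 were higher and 133, 1004, 420 and 432 lower in Dahl. At 6 weeks 460 genes differed (3.24%), 230 in each direction, which became 824 higher and 1060 lower without the first 6-week Dahl rat, 77 and 38 without the second, and 9 and 10 without the first 6-week SHR rat. The number called rested on single arrays: without the second 4-week Dahl rat 261 genes were higher and 161 lower, without the first 640 and 416, without the first 4-week SHR rat 504 and 466, without the second 287 and 257, and without either 6-week SHR rat 398 and 231.

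Whether a strain difference itself differed between the ages was asked with the interaction, the 6-week difference minus the 4-week difference, which 101 genes passed (0.710%). It uses the same 4-week arrays as the 4-week difference, so a 4-week value that is extreme by chance enters both. Of the 1982 genes called at 4 weeks, 48 had a difference of at least 1.5-fold that was smaller at 6 weeks by this test, under 1.5-fold and not called there. A further 23 were called in opposite directions at the 2 ages, 274 were called at both ages in the same direction, 18 passed the interaction in other ways, and 1619 were called at 4 weeks only without the ages being shown to differ. Among the 1982 genes, 1648 (83.1%) had the same sign at 6 weeks. The sets of 48 and 23 were chosen on these values, so their sizes at the 2 ages are descriptions, and they rested on single arrays: the 23 became 2 to 74 with 1 array left out, and without the first 6-week SHR rat 1 of the 48 was still in its set, although all 48 kept the sign of the interaction with any array left out. Some dimmer probe sets gave 4-week differences of -0.14 to 0.17, beside the larger ones given for their genes. These genes were Mmp2, Aif1, Bmp6, Prodh, Klf9, Dpep1, Scnn1a, Lama4, Synpo, Racgap1, Tacc3, Knstrn and Dlgap1. Other dimmer probe sets of Bmp6, Klf9, Synpo and Dpep1 went with the larger ones, at 4.30, -1.26, 2.03 and -1.98, all called but that of Dpep1.

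**Figure D1:**
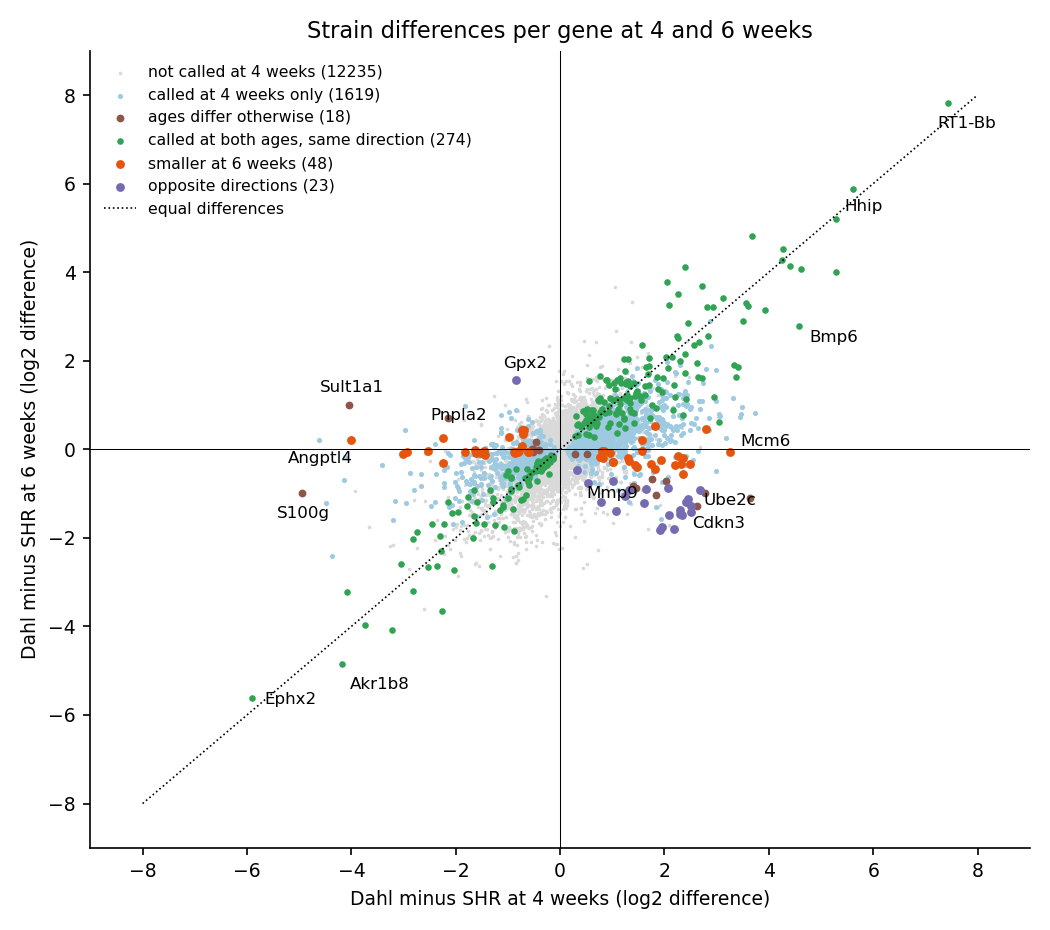
Each point is 1 of 14217 genes, with the Dahl minus SHR difference at 4 weeks on the horizontal axis and at 6 weeks on the vertical axis (both log2), coloured by how the gene was called. The 48 genes in orange lie close to the horizontal line of no difference at 6 weeks, and 22 of the 23 in purple lie below it at the right.

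The set of 48 changed with age mainly in SHR. Its median absolute strain difference was 1.49 at 4 weeks and 0.20 at 6 weeks, and the median absolute change from 4 to 6 weeks was 1.24 in SHR and 0.24 in Dahl. The change with age was larger in SHR for 45 of the 48 genes. It was called for 45 in SHR and for none in Dahl. The set was chosen on the interaction, which is also the change with age in Dahl minus that in SHR. Age changes were therefore part of the choice, and the 45 cannot be weighed against the 3.42% of all genes called in SHR. In Dahl only 0.0985% of all genes were called, so the lack of calls there says nothing particular to this set. For the 23 genes lower in 4-week Dahl the median absolute change was 1.32 in SHR and 0.03 in Dahl, and for the 25 that were higher it was 1.15 and 0.44.

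Several genes that copy DNA were in the set that was higher in 4-week Dahl glomeruli and level at 6 weeks. Mcm6, a subunit of the helicase that opens DNA for replication, measured 6.42 and 6.60 in 4-week Dahl and 3.05 and 3.46 in 4-week SHR. Both Dahl rats lay above both SHR rats, by 3.25 on the log2 scale (SE 0.19, 9.54-fold, adjusted p = 0.00471). At 6 weeks the Dahl rats were at 5.91 and 6.29 and the SHR rats at 6.18 and 6.14, so the strains overlapped (difference -0.06), and the interaction was -3.32 (adjusted p = 0.0298). Mcm2, another subunit of that helicase, was at 7.24 in both 4-week Dahl rats against 4.93 and 4.84 in SHR. The groups did not overlap and differed by 2.36 (SE 0.07, 5.12-fold, adjusted p = 0.00183). At 6 weeks Mcm2 lay at 6.87 and 6.95 in Dahl and 7.20 and 7.03 in SHR, a difference of -0.20 that was not called, with an interaction of -2.56 (adjusted p = 0.00615).

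Other genes of DNA synthesis in the set were named after their values had been seen. Pola1 and Pold1, catalytic subunits of DNA polymerases alpha and delta, were higher in 4-week Dahl by 1.57 and 0.96, Timeless, a part of the replication fork, by 2.49, and Dscc1, which helps to load the sliding clamp, by 1.01. Nasp, a histone chaperone, was higher by 0.82, and by 0.08 on its second probe set. All of them lay within 0.33 of no difference at 6 weeks, and the first 4 were dim, at 4.90 or below in every rat. Lmnb1, which encodes the nuclear lamina protein lamin B1, was at 7.44 and 7.74 in 4-week Dahl and 5.43 and 5.05 in SHR. Its groups were 2.35 apart (SE 0.16, 5.12-fold, adjusted p = 0.00583) and at 6 weeks -0.55 apart, in the other order and not called. The other 2 probe sets of Lmnb1 showed 0.47 and -0.07. Zfp367, a zinc finger protein, and Kif22, a kinesin that moves chromosomes, were higher by 2.31 (SE 0.19, adjusted p = 0.00848) and 2.21 (SE 0.18, adjusted p = 0.00817) and at -0.33 and -0.35 at 6 weeks.

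Of the 23 genes called in opposite directions, 22 were higher in Dahl at 4 weeks and lower in Dahl at 6 weeks. Of these, 8 were in the list of cell cycle genes, and the roles given for the others were looked up after the calls had been seen. Nuf2, part of the kinetochore that ties chromosomes to the spindle, measured 4.59 and 4.61 in 4-week Dahl and 2.47 and 2.34 in SHR. At 6 weeks it measured 2.26 and 2.73 in Dahl and 4.39 and 4.18 in SHR. The groups did not overlap at either age, with differences of 2.19 (SE 0.17, adjusted p = 0.00777) and -1.79 (adjusted p = 0.0235).

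Ube2c, which helps to mark mitotic cyclins for destruction, was at 6.53 and 6.68 in Dahl against 4.23 and 3.98 in SHR at 4 weeks, and at 4.83 and 4.86 against 6.24 and 6.27 at 6 weeks. Again neither pair of groups overlapped, at 2.50 (SE 0.10, 5.68-fold, adjusted p = 0.00236) and -1.41 (adjusted p = 0.0116). Cdkn3, a phosphatase that acts on cyclin-dependent kinases, stood at 6.99 and 7.24 against 4.86 and 4.70 in the younger rats and at 5.42 and 5.18 against 6.91 and 6.67 in the older. Its differences were 2.34 (SE 0.15, adjusted p = 0.00499) and -1.49 (adjusted p = 0.0242). The proliferation marker Mki67 had 7.96 and 7.85 in Dahl and 5.51 and 5.39 in SHR at 4 weeks, then 6.51 and 6.33 in Dahl and 7.62 and 7.46 in SHR. It followed the same order as the other 3 genes, with 2.46 (SE 0.09, adjusted p = 0.00236) and -1.12 (adjusted p = 0.0185).

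The same pattern was called for cyclins Ccna2, Ccnb1 and Ccnb2, their kinase Cdk1 and its partner Cks2, the spindle midzone protein gene Prc1, the checkpoint kinase gene Bub1, the separase inhibitor gene Pttg1, the cytokinesis genes Ect2 and Racgap1, the spindle genes Tacc3 and Knstrn and the cohesin acetyltransferase gene Esco2. Their 4-week differences ran from 0.78 for Pttg1 to 2.68 for Racgap1, and their 6-week differences from -0.87 for Ccna2 to -1.81 for Cks2. Iqgap3, Nup155, Dctpp1, Dlgap1 and Mmp9 were the other 5. Over the 22 genes the median difference was 2.02 at 4 weeks and the median absolute difference 1.20 at 6 weeks. The median absolute change with age was 1.84 in SHR and 1.54 in Dahl. That change was called for all 22 genes in SHR but for 6 in Dahl, and was larger in SHR for 17. The 23rd gene, Gpx2, a glutathione peroxidase, ran the other way: 5.96 and 5.93 in Dahl and 6.60 and 6.97 in SHR at 4 weeks, then 5.81 and 6.14 against 4.50 and 4.33. Its differences were -0.84 (SE 0.17, adjusted p = 0.0427) and 1.56 (adjusted p = 0.0293), and its 4-week call was lost without any one of the 4-week rats or of the 6-week SHR rats. Of the 22 genes, Cdk1, Bub1, Knstrn, Cks2, Dctpp1, Nup155 and Iqgap3 lost their 4-week calls without the second 4-week Dahl rat.

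In a list of 37 measured genes of the cell cycle, 25 were higher in 4-week Dahl glomeruli and none lower (67.6% called, beside 13.9% of all genes). The median difference of the list was 1.20, beside -0.05 over all genes. At 6 weeks none was higher and 9 were lower, with a median of -0.53, and 14 passed the interaction. From 4 to 6 weeks 16 of the 37 were called as rising in SHR and none as falling, while 2 were called as falling in Dahl and none as rising. Over all genes 3.42% were called with age in SHR and 0.0985% in Dahl. The median change of the list with age was 0.86 in SHR and -0.54 in Dahl. The score of the list, the median deviation of its genes from their means over all 8 arrays, was 0.45 and 0.52 in 4-week Dahl and -0.50 and -0.65 in 4-week SHR. It was -0.29 and -0.16 in Dahl and 0.25 and 0.36 in SHR at 6 weeks, so the groups did not overlap at either age and changed order. The count of 25 fell to 10 without the second 4-week Dahl rat, 12 without the second 4-week SHR rat and 16 without the first. The 9 that were lower at 6 weeks became none without the second 6-week Dahl rat or either 6-week SHR rat, 1 without either 4-week SHR rat and 5 without either 4-week Dahl rat. Cdkn1a, which encodes the cell cycle inhibitor p21, was at -1.26 and Cdkn1b, which encodes p27, at -0.54 at 4 weeks, neither of them called and both named after their values had been seen.

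Promoters of these genes were read because cell cycle genes of the late phases are known to share a CCAAT box near a CHR element, and those of DNA synthesis to carry E2F sites. The 150 bases before the start of 3 mitotic genes called in opposite directions and of the 2 helicase genes, from RefSeq on build GRCr8, are shown 5' to 3' on the strand of the gene. Capitals mark the letters of a CCAAT box (CCAAT), a CHR element (TTTGAA or TTTAAA) or an E2F site (TTTCCCGC, TTTCGCGC, TTTGCCGC or TTTGGCGC), read on both strands.
Cdk1 (chr20:19265143-19265292, plus strand): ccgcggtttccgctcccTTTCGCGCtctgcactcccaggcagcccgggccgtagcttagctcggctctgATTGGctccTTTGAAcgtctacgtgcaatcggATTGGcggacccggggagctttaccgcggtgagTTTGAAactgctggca
Prc1 (chr1:143659331-143659480, plus strand): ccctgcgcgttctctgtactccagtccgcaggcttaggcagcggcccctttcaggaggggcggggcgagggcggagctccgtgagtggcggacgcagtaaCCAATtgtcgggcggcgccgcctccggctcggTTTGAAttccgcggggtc
Tacc3 (chr14:81289699-81289848, minus strand): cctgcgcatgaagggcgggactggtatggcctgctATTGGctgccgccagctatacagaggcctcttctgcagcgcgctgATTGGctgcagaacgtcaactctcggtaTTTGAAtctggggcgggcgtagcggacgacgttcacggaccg
Mcm6 (chr13:42404353-42404502, minus strand): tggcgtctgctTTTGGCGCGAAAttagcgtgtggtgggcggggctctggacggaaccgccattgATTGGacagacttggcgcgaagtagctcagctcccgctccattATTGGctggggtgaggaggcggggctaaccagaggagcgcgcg
Mcm2 (chr4:122918095-122918244, minus strand): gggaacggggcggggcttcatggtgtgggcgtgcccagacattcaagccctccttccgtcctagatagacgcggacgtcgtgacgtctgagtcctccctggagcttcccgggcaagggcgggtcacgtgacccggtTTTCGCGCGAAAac

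In Prc1 and Tacc3 a CHR element stands downstream of the nearest CCAAT box, and in Cdk1 each of 2 CHR elements follows such a box. This order was not general among the 22 genes. The CHR element of Cdkn3 lies upstream of its CCAAT boxes, and Bub1, Knstrn, Iqgap3 and Nuf2 held a CHR element without a CCAAT box. Mcm6 and Mcm2 show E2F letters on both strands that overlap each other, and in Mcm6 a pair of CCAAT boxes follows. Over a window of 300 bases, 250 before and 50 after the start, 17 of the 22 genes higher at 4 and lower at 6 weeks had a promoter in the table. Of those, 14 held a CHR element (82.4%), 12 a CCAAT box (70.6%) and 10 both (58.8%), beside 28.0%, 37.7% and 11.2% of the promoters of 27457 genes. Of the 25 genes of the set of 48 that were higher in Dahl, 22 had a promoter: 16 held a CCAAT box (72.7%), 6 a CHR element (27.3%) and 5 an E2F site (22.7%), beside 2.20% of all promoters for the last. Of the 23 that were lower in Dahl, 15 had a promoter, with a CCAAT box in 3 (20.0%), a CHR element in 1 (6.67%) and an E2F site in none. These shares are descriptions of short words and were not tested.

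**Figure D2:**
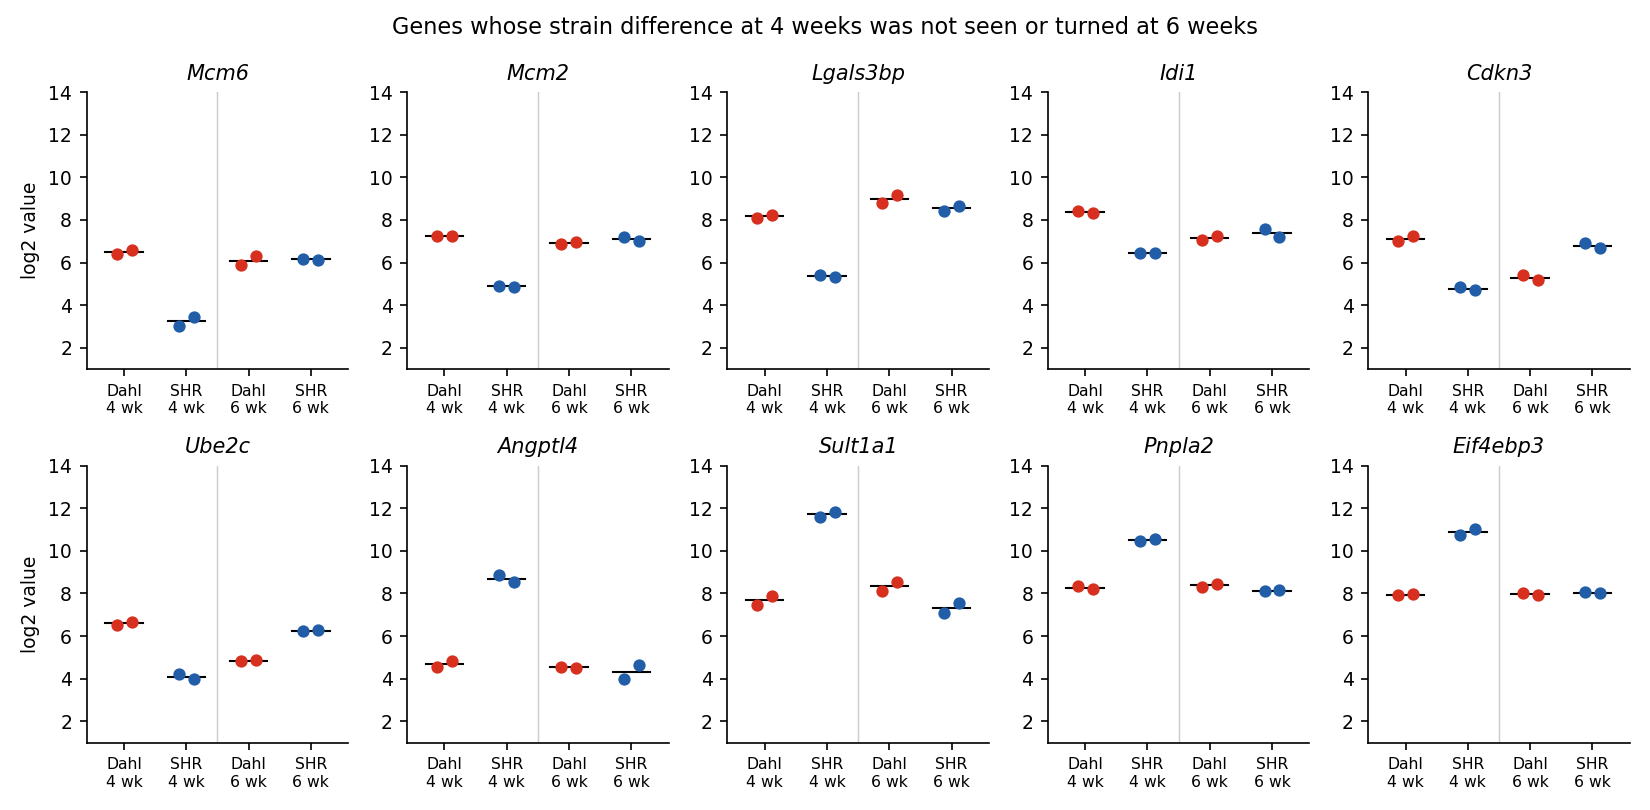
Each panel shows the log2 value of 1 gene in the 8 rats (red, Dahl; blue, SHR; 4 weeks left of the grey line, 6 weeks right), with a bar at the mean of each pair. In Mcm6, Mcm2, Lgals3bp and Idi1 the 4-week SHR rats lie lowest, in Cdkn3 and Ube2c the strains change order, and in Angptl4, Sult1a1, Pnpla2 and Eif4ebp3 the 4-week SHR rats lie highest.

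Of 19 measured genes of cholesterol synthesis 6 were higher and 1 was lower in Dahl at 4 weeks, and none was called at 6 weeks. The share called at 4 weeks was 36.8%, beside 13.9% of all genes, which fell to 3.24% at 6 weeks. Idi1, an isomerase of the mevalonate pathway, measured 8.44 and 8.33 in Dahl and 6.45 in both SHR rats. The groups did not overlap, at 1.94 apart (SE 0.15, 3.83-fold, adjusted p = 0.00789), and its second probe set gave 2.33. At 6 weeks it measured 7.04 and 7.26 against 7.59 and 7.18, which overlapped, with an interaction of -2.17 (adjusted p = 0.045). Cyp51, which demethylates lanosterol, was at 8.71 and 8.72 against 7.33 and 7.16, higher by 1.47 (SE 0.13, 2.77-fold, adjusted p = 0.00987), and at -0.40 at 6 weeks (interaction adjusted p = 0.0451). Sqle, the squalene epoxidase gene, was at 6.33 and 6.86 against 4.33 and 4.06, higher by 2.41 (SE 0.26, adjusted p = 0.0134), without its interaction being called (adjusted p = 0.0804). The 4-week calls of Cyp51 and Sqle were lost without the second 4-week Dahl rat, and that of Sqle also without the second 4-week SHR rat.

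The median difference of these 19 genes was 0.50 at 4 weeks and -0.14 at 6 weeks. The scores were 0.35 and 0.28 in 4-week Dahl and -0.19 and -0.29 in 4-week SHR, and lay between -0.09 and 0.02 in all 4 rats of 6 weeks. The 6 became 2 without the second rat of either strain at 4 weeks and 4 without the first SHR rat. Fads1, a desaturase of long fatty acids in the set of 48, was higher by 1.31 (SE 0.11, adjusted p = 0.00859) and at -0.20 at 6 weeks.

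The set of 48 held further genes that were higher in 4-week Dahl. Lgals3bp, a secreted galectin-binding glycoprotein, measured 8.11 and 8.25 in Dahl and 5.42 and 5.34 in SHR. The 4 values separated by strain, with a difference of 2.80 (SE 0.14, 6.96-fold, adjusted p = 0.00393), while at 6 weeks all lay between 8.44 and 9.18 and the difference was 0.46. Nrep, a gene known from regenerating nerve, had 11.20 and 11.02 against 8.95 and 8.75, higher by 2.26 (SE 0.12, 4.79-fold, adjusted p = 0.00408), and lay at 10.65 to 10.95 in the 4 rats of 6 weeks. Ckap4, a membrane protein of the endoplasmic reticulum, had 7.99 and 7.90 against 6.44 and 6.30, higher by 1.57 (SE 0.10, adjusted p = 0.00471), with 0.21 at 6 weeks. Its other probe sets gave 1.48 and 2.37 at 4 weeks.

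A second block of genes was lower in 4-week Dahl, with the 4-week SHR rats standing high. Angptl4, an inhibitor of lipoprotein lipase that fasting induces, measured 4.54 and 4.83 in Dahl and 8.86 and 8.53 in SHR at 4 weeks. The groups were far apart, with a difference of -4.01 (SE 0.25, 16.2-fold higher in SHR, adjusted p = 0.00471). At 6 weeks it measured 4.56 and 4.51 against 4.01 and 4.64, which overlapped, and the interaction was 4.22 (adjusted p = 0.0298). Pnpla2, the lipase that starts the breakdown of stored fat, was at 8.34 and 8.21 against 10.48 and 10.57 and did not overlap (-2.25, SE 0.07, 4.75-fold higher in SHR, adjusted p = 0.00183). All 4 rats of 6 weeks lay between 8.10 and 8.43. Eif4ebp3, a repressor of translation, was at 7.93 and 7.96 against 10.73 and 11.01 (-2.93, SE 0.10, 7.60-fold higher in SHR, adjusted p = 0.00198) and between 7.91 and 8.06 at 6 weeks. Pim3, a protein kinase, was at 6.79 and 6.77 against 8.47 and 8.36 (-1.63, SE 0.08, adjusted p = 0.00341) and differed by -0.01 at 6 weeks.

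Smaller falls of this kind were measured for the receptor gene Igf1r (-0.98, SE 0.09, adjusted p = 0.0105), the calcium channel regulator gene Cracr2b (-0.73, SE 0.08, adjusted p = 0.0137), the lipid kinase gene Dgka (-0.71, SE 0.08, adjusted p = 0.0127) and Pfkp, a phosphofructokinase of glycolysis (-0.69, SE 0.07, adjusted p = 0.012). Their 6-week differences were 0.28, 0.44, 0.33 and 0.43, none of them called. The second probe set of Igf1r gave -1.01. Without the second rat of either strain at 4 weeks the calls of Cracr2b and Dgka were lost, and without the second SHR rat that of Pfkp. Among dim genes of the set, Dmbt1, a mucosal scavenger receptor, was at 2.08 and 2.07 in Dahl and 5.28 and 4.89 in SHR at 4 weeks, and between 2.05 and 2.20 in every rat of 6 weeks.

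Sult1a1, a sulfotransferase of phenols, had the largest interaction of the genes that the naming rule gave. It measured 7.46 and 7.90 in Dahl and 11.61 and 11.84 in SHR at 4 weeks, apart by -4.04 (SE 0.25, 16.4-fold higher in SHR, adjusted p = 0.00471), and 8.13 and 8.53 against 7.11 and 7.53 at 6 weeks. The order of the strains was turned at 6 weeks by 1.01, which was not called (adjusted p = 0.087), and the interaction was 5.05 (adjusted p = 0.0249). S100g, which encodes the calcium-binding protein of the distal tubule, was at 3.69 and 3.67 against 8.92 and 8.33 at 4 weeks and at 3.72 and 3.65 against 4.53 and 4.79 at 6 weeks. The strains did not overlap at either age (-4.94, SE 0.21, 30.8-fold higher in SHR, adjusted p = 0.0027, then -0.98), with an interaction of 3.97 (adjusted p = 0.0289). Gstm2, a glutathione transferase, differed by -2.14 at 4 weeks (SE 0.17, adjusted p = 0.00817) and by 0.70 at 6 weeks, where it was not called, with an interaction of 2.84 (adjusted p = 0.0345).

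Large 4-week differences of related genes were not shown to change with age. Slc25a25, a mitochondrial carrier of nucleotides, measured 5.68 and 5.31 in Dahl and 10.02 and 10.20 in SHR (-4.62, SE 0.42, 24.6-fold higher in SHR, adjusted p = 0.00989). At 6 weeks it overlapped, at 6.95 and 5.89 against 5.86 and 6.56, and its interaction had an adjusted p of 0.0687. Prodh, which starts the breakdown of proline, was at 5.98 and 5.74 against 10.48 and 10.21 (-4.49, SE 0.44, adjusted p = 0.0109), and Bhmt, which remethylates homocysteine, at 3.36 and 3.21 against 7.13 and 7.71 (-4.13, SE 0.34, adjusted p = 0.00821). Their 6-week differences were -1.22 and -0.69, neither of them called. Igfbp1, a binding protein of insulin-like growth factors that rises in fasting, was at 6.68 and 7.38 against 11.02 and 11.28 (-4.12, SE 0.58, adjusted p = 0.0225), and Vnn1, a pantetheinase, at 7.93 and 8.91 against 11.87 and 11.78 (-3.41, SE 0.50, adjusted p = 0.0241). The calls of Igfbp1 and Vnn1 were lost without any one of the 4-week rats or of the 6-week SHR rats, and those of Slc25a25 and Prodh without the second 4-week Dahl rat.

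A list of 31 measured genes known to respond to fasting or glucocorticoids was drawn up after these values had been seen, so its count is a description: 18 were lower in 4-week Dahl, none higher, with a median of -1.12, and none was called at 6 weeks, where the median was -0.18. Besides the genes above it held Pdk4, which spares glucose (-2.57), Cpt1a, which admits fatty acids to mitochondria (-1.18), Plin2, a coat of lipid droplets (-1.70, and 0.20 on its second probe set), and the glucocorticoid targets Tsc22d3 (-1.21) and Klf9 (-1.09), all of them called. All 5 lost their calls without the second 4-week Dahl rat or either 4-week SHR rat, and Cpt1a, Plin2 and Klf9 also without either 6-week SHR rat. Fkbp5 (-2.49, adjusted p = 0.0551) and Pck1 (-1.66, adjusted p = 0.132) were not called, but the second probe set of Fkbp5 was (-2.89, adjusted p = 0.0118). The second probe sets of Pdk4 and Klf9, dim at means of 2.82 and 3.90, gave -1.80 and -1.26. Both were called, as were their interactions (adjusted p = 0.0198 and 0.0167). At 4 weeks 58.1% of the list was called, beside 13.9% of all genes. The scores of the list were -0.32 and -0.51 in 4-week Dahl and 0.77 and 0.80 in 4-week SHR, and -0.46 to 0.01 in the 4 rats of 6 weeks. From 4 to 6 weeks 9 of its genes were called as falling in SHR and none was called in Dahl, beside 3.42% and 0.0985% of all genes. The median change of the list with age was -0.69 in SHR and 0.03 in Dahl. The count of 18 was 6 without the second 4-week Dahl rat, 7 without the second and 8 without the first 4-week SHR rat, and 10 without either 6-week SHR rat.

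Genes of fatty acid oxidation and the peroxisome pointed the same way: 12 of 33 were lower in 4-week Dahl and none higher, with a median of -1.05, beside 1 lower and 1 higher at 6 weeks, where the median was -0.54. The share called at 4 weeks was 36.4%, beside 13.9% of all genes, which fell to 3.24% at 6 weeks. Acox2, an oxidase of branched fatty acids and bile acid precursors, was at 3.36 and 2.68 in Dahl against 7.02 and 7.20 in SHR (-4.09, SE 0.37, 17.0-fold higher in SHR, adjusted p = 0.00987), and 2.98 and 2.66 against 6.48 and 5.61 at 6 weeks, apart at both ages. Ech1, an isomerase of unsaturated fatty acids, was at 9.34 and 9.68 against 11.24 and 11.33 at 4 weeks (-1.77, SE 0.16, adjusted p = 0.00987) and at -0.25 at 6 weeks. Ppara, the receptor that drives many of these genes, was dim at 2.35 and 2.34 against 2.83 and 2.89 (-0.52, SE 0.03, adjusted p = 0.00471), and its interaction was 0.46 (adjusted p = 0.0383). The 12 became 4 to 6 without any one 4-week rat or 6-week SHR rat, and 23 without either 6-week Dahl rat. At 6 weeks 15 were lower without the first 6-week Dahl rat.

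**Figure D3:**
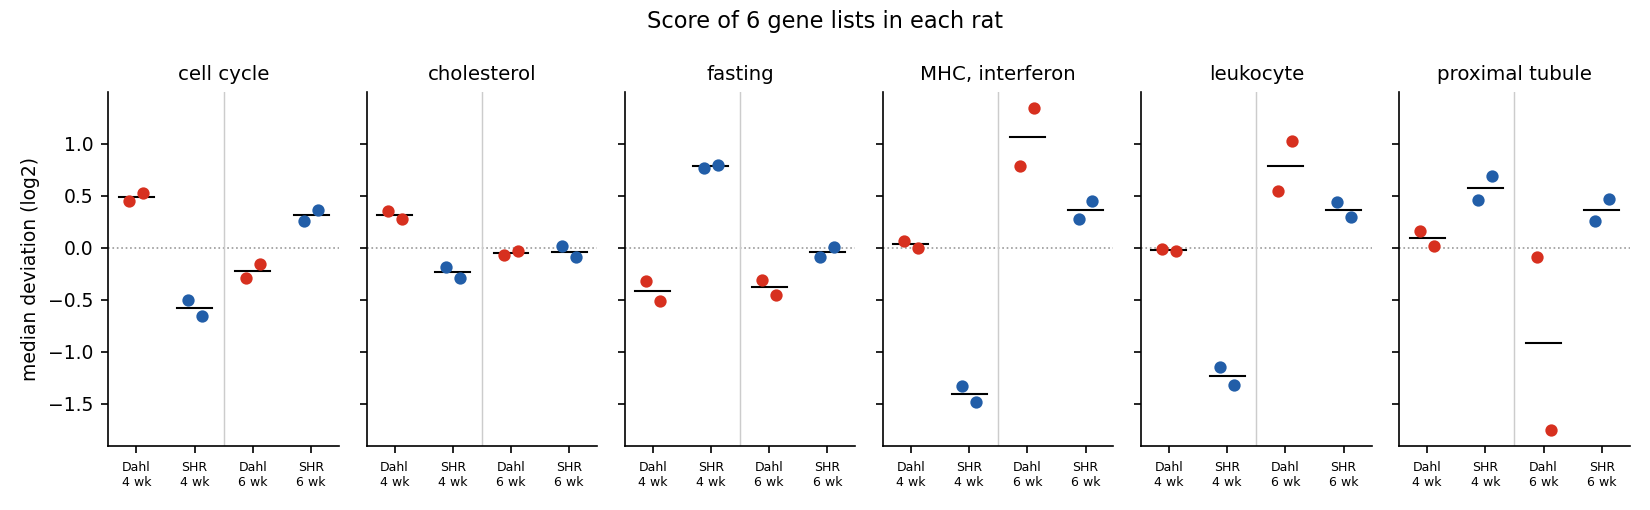
Each point is 1 rat (red, Dahl; blue, SHR) and its height is the score of a gene list, the median deviation of the genes from their means over the 8 rats (log2). The 4-week SHR rats lie lowest for cell cycle, MHC and interferon, and leukocyte genes and highest for fasting genes, while the second 6-week Dahl rat lies lowest for proximal tubule genes.

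Scores of tubule markers were also lower in 4-week Dahl than in SHR, and their part in the differences was not tested. Of 26 proximal tubule markers 1 was lower in 4-week Dahl, Dpep1, a dipeptidase of the brush border (-2.26, SE 0.42, adjusted p = 0.0364), and none higher, with a median of -0.48. The score of that list was 0.16 and 0.02 in 4-week Dahl and 0.46 and 0.69 in SHR. Of 19 distal nephron markers S100g and the sodium channel gene Scnn1a were lower and none higher, with a median of -0.69 and scores of 0.03 and -0.63 against 0.72 and 0.52. Scnn1a was at 3.03 and 2.89 against 5.31 and 5.10 (-2.24, SE 0.15, adjusted p = 0.00524) and belonged to the set of 48. At 6 weeks the medians of both lists were larger, at -1.23 and -0.95, with the second 6-week Dahl rat at -1.75 and -1.14. Over 30 genes of mitochondrial respiration none had a difference above 0 at 4 weeks, beside 5821 of all 14217 genes. Of the 30, 1 was called, Ndufa5, a subunit of complex I (-0.49, SE 0.08, adjusted p = 0.0276). The share called at 4 weeks was 3.85% for proximal tubule markers and 3.33% for respiration genes, beside 13.9% of all genes. That of the distal nephron markers was also below the share of all genes. The call of Dpep1 was lost without any one of the 4-week rats or of the 6-week SHR rats, and that of Ndufa5 without either 4-week Dahl rat or either 6-week SHR rat. Without either 6-week Dahl rat 8 proximal tubule markers were lower and 2 higher at 4 weeks, and 5 respiration genes were lower. Without the first 6-week Dahl rat 22 proximal tubule markers and 15 respiration genes were lower at 6 weeks.

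In a list of 38 histocompatibility (MHC) and interferon genes, 21 were higher and 3 lower in Dahl at 4 weeks and 31 had a difference above 0, against 4 and 2 called at 6 weeks, where the median was 0.66. From 4 to 6 weeks 22 of them were called as rising in SHR and 1 in Dahl. Over all genes 3.42% were called with age in SHR and 0.0985% in Dahl, in either direction. The median change of the list with age was 1.46 in SHR and 0.88 in Dahl. Scores were 0.07 and 0.00 in Dahl and -1.32 and -1.48 in SHR at 4 weeks, and 0.78 and 1.34 against 0.27 and 0.45 at 6 weeks. RT1-Db1, a class II gene, was at 9.16 and 8.93 against 6.61 and 6.75 at 4 weeks (2.36, SE 0.09, 5.14-fold, adjusted p = 0.00236) and at 9.99 in both Dahl rats against 9.20 and 9.24 at 6 weeks. On this probe set the strains stayed apart by less (0.77, adjusted p = 0.0322), and it was the 1 gene of the list that passed the interaction (-1.59, adjusted p = 0.0298). Its second probe set did not bear this out, at 2.54 at 4 weeks and 3.57 at 6 weeks (interaction 1.03, adjusted p = 0.212). Isg15, a ubiquitin-like protein induced by interferon, was at 6.29 and 6.43 against 2.56 and 2.69 (3.73, SE 0.40, adjusted p = 0.0129), with SHR near the dimmest of the 4 groups of probe sets (means up to 2.60), so no fold is given. At 6 weeks it overlapped, at 7.64 and 8.47 against 6.78 and 7.69, with an interaction adjusted p of 0.152. Differences also ran the other way, down to -3.23 in the list at 4 weeks. The histocompatibility gene RT1-A3 was lower in Dahl by -2.28 at 4 weeks (adjusted p = 0.00471) and -2.30 at 6 weeks. Its second probe set, dim at a mean of 2.31, gave -0.08. At 4 weeks 63.2% of the list was called, beside 13.9% of all genes, of which 3.24% were called at 6 weeks. The count of 21 was 5 without the second 4-week Dahl rat, 6 without the second 4-week SHR rat, and 14 without the first rat of either strain. At 6 weeks the 4 higher calls became 8 without the first 6-week Dahl rat and 2 without the second or without any SHR rat.

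Leukocyte markers moved with them: 13 of 24 were higher and 3 lower in 4-week Dahl, with a median of 1.32, and none was higher and 1 lower at 6 weeks, where the median was 0.24. Calls at 4 weeks made up 66.7% of the list, beside 13.9% of all genes, which fell to 3.24% at 6 weeks. Aif1, a macrophage marker, was at 6.97 and 6.60 against 3.88 and 3.57 (3.06, SE 0.26, 8.32-fold, adjusted p = 0.00868), C1qa, a complement subunit made by macrophages, at 7.88 and 7.49 against 5.10 and 5.29 (2.49, SE 0.18, adjusted p = 0.00641), and Csf1r, a macrophage growth factor receptor, at 5.63 and 5.30 against 3.52 and 3.32 (2.05, SE 0.15, adjusted p = 0.007). All 3 separated the strains at 4 weeks, and in SHR all were higher in both 6-week rats than in both 4-week rats. None passed the interaction (adjusted p of 0.107, 0.0687 and 0.0914). The T cell and B cell genes Cd3d, Cd4, Cd8a and Ms4a1, named after their values had been seen, differed by -0.06 to -0.02 at 4 weeks and were not called. The count of 13 was 4 without the second 4-week Dahl rat, 5 without the second 4-week SHR rat, 6 without either 6-week SHR rat and 8 without the first 4-week Dahl rat. The part of leukocyte content in the differences of immune genes was not tested.

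**Figure D4:**
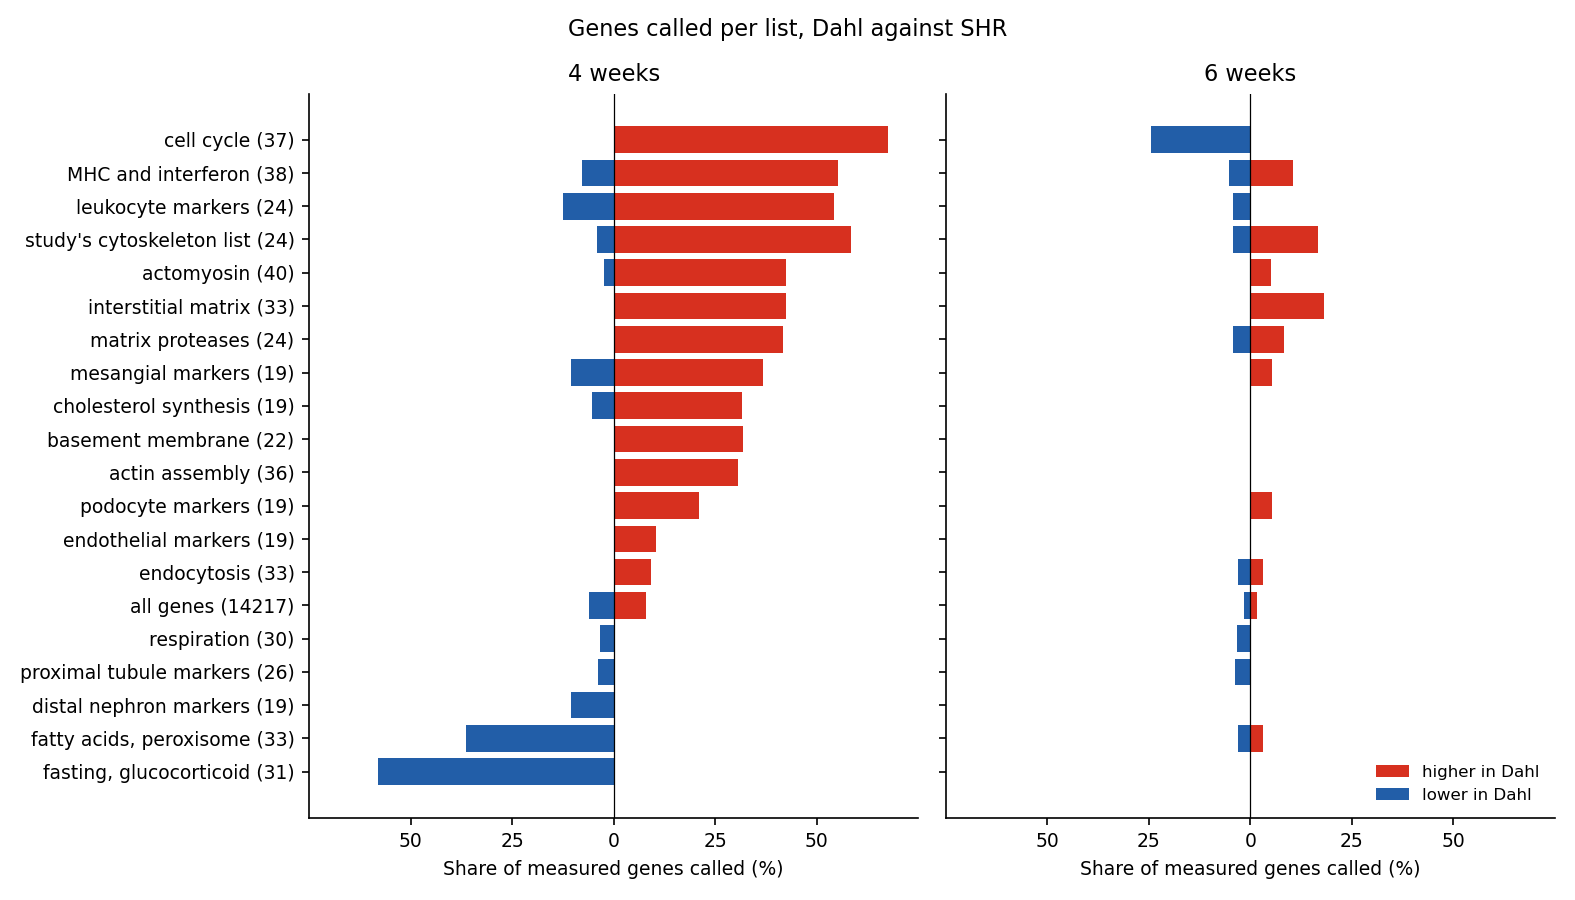
Bars give the share of the measured genes of each list (number in brackets) that were called higher (red, to the right) or lower (blue, to the left) in Dahl at 4 weeks and at 6 weeks, in percent. At 4 weeks the cell cycle list reaches farthest to the right, with 25 of 37 genes, and at 6 weeks its calls are all to the left.

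Of 40 genes of actomyosin contraction 17 were higher and 1 lower, with a median of 0.55, against 2 higher and none lower at 6 weeks. Calls made up 45% of the list at 4 weeks, beside 13.9% of all genes, which fell to 3.24% at 6 weeks. The interaction was called for 2 of the 40. Myh10 and Myl9, the heavy chain and a light chain of nonmuscle and smooth muscle myosin, belonged to the set of 48. Myh10 was at 9.77 and 9.63 against 8.71 and 8.66 at 4 weeks (1.02, SE 0.08, adjusted p = 0.00686) and at 9.60 and 9.73 against 10.01 and 9.90 at 6 weeks, where the order was the reverse and not called (interaction -1.30, adjusted p = 0.0298). Myl9 was at 8.43 in both Dahl rats against 7.14 and 7.07 (1.33, SE 0.12, adjusted p = 0.00925) and at -0.25 at 6 weeks (interaction -1.58, adjusted p = 0.047), and lost its 4-week call without the second 4-week Dahl rat. Tagln, an actin-binding protein of smooth muscle and mesangial cells, was at 9.58 and 9.59 against 7.62 and 7.72 (1.92, SE 0.12, adjusted p = 0.00471), with an interaction that was not called (adjusted p = 0.0592). The count of 17 was 3 without the second 4-week Dahl rat, 4 without the second 4-week SHR rat, 7 without either 6-week SHR rat and 10 without the first rat of either strain. The 2 at 6 weeks became 7 without the first 6-week Dahl rat and none without any other array.

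Of 33 genes of the interstitial matrix 14 were higher and none lower in 4-week Dahl (median 0.49), and 6 were higher at 6 weeks. Calls at 4 weeks made up 42.4% of the list, beside 13.9% of all genes, which fell to 3.24% at 6 weeks. Loxl2, a crosslinker of collagen, was at 5.65 and 5.70 against 3.89 and 3.83 (1.82, SE 0.08, 3.52-fold, adjusted p = 0.0031) and fell to a difference of 0.52 at 6 weeks (interaction -1.30, adjusted p = 0.0397), while its second probe set gave 0.46 at 4 weeks. Of 22 basement membrane genes 7 were higher, none lower and none called at 6 weeks. Among them Col4a1, a chain of collagen IV, was at 12.42 and 12.57 against 11.46 and 11.32 (1.10, SE 0.11, adjusted p = 0.0108) and Lama4, a laminin chain of vessels, at 8.87 and 8.97 against 8.02 and 7.79 (1.02, SE 0.12, adjusted p = 0.0158). Both lost their calls without the second 4-week Dahl rat, and Lama4 also without the second 4-week SHR rat. The 14 matrix genes were 9 without the second 4-week SHR rat, and the 6 at 6 weeks ranged from 1 to 9 with 1 array left out. At 4 weeks the share called among basement membrane genes was 31.8%, beside 13.9% of all genes. The 7 of them became 1 without the second 4-week Dahl rat, 2 without the second 4-week SHR rat and 4 without either 6-week SHR rat.

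Of 24 matrix proteases and inhibitors 10 were higher in 4-week Dahl and none lower (41.7% called, beside 13.9% of all genes). Both gelatinase genes, Mmp2 and Mmp9, passed the interaction. Mmp2 was at 6.36 and 6.49 against 3.34 and 3.41 (3.05, SE 0.09, 8.30-fold, adjusted p = 0.00183) and at 5.91 and 6.07 against 5.47 and 5.29 at 6 weeks (0.61, adjusted p = 0.0467), with an interaction of -2.44 (adjusted p = 0.0131). Mmp9 was at 10.96 and 11.35 against 9.49 and 9.59 at 4 weeks (1.61, SE 0.15, 3.06-fold, adjusted p = 0.01) and at 10.49 and 10.69 against 11.74 and 11.85 at 6 weeks. The strains were apart at both ages in opposite order (-1.20 at 6 weeks, adjusted p = 0.0352), and the second probe set of Mmp9 gave 2.51 and -1.24. The 10 became 3 without the second 4-week Dahl rat, 4 without the second 4-week SHR rat, 5 without either 6-week SHR rat and 6 without the first rat of either strain.

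Of 19 podocyte markers 4 were higher in 4-week Dahl and none lower (21.1% called, beside 13.9% of all genes), with a median of 0.46, and 17 had a difference above 0. Nes, which encodes the intermediate filament protein nestin, was at 10.31 and 10.38 in Dahl against 8.95 and 8.67 in SHR (1.53, SE 0.14, 2.89-fold, adjusted p = 0.00971). It was the largest difference of the list, stayed apart at 6 weeks (1.20, adjusted p = 0.0321), and lost its 4-week call only without the second 4-week Dahl rat. Plce1, a phospholipase C, was higher by 0.86 (SE 0.18, adjusted p = 0.0455), a call lost without any one of 6 arrays. Synpo, the actin-bundling protein of foot processes, was at 12.26 and 12.47 against 11.71 and 11.41 (0.80, SE 0.13, 1.75-fold, adjusted p = 0.0276), and Pdpn, the podocyte surface protein podoplanin, at 10.90 and 11.25 against 10.45 and 10.30 (0.70, SE 0.15, adjusted p = 0.0498). Nphs1 at 0.22 (adjusted p = 0.287), Wt1 at 0.16 (adjusted p = 0.516) and Actn4, the crosslinker alpha-actinin 4, at 0.48 (adjusted p = 0.091) were not called. The 95% interval of the Nphs1 difference ran from -0.15 to 0.60. None of the list was called without the second 4-week Dahl rat, 1 gene without the first 4-week Dahl rat, the second 4-week SHR rat or either 6-week SHR rat, and 2 without the first 4-week SHR rat. Pdpn was named by its own entry in the naming rule, and its call was lost whichever array was left out, while that of Synpo was lost without any of 5 arrays. Of 19 endothelial markers 2 were higher and none lower, and 0 to 2 were higher with 1 array left out.

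Dynamins cut vesicles from the membrane and are the study's subject. Dnm1 was at 7.40 and 7.14 in Dahl against 5.76 and 5.48 in SHR at 4 weeks, and at 7.39 and 7.29 against 5.82 and 5.16 at 6 weeks. The groups were apart at both ages by a like amount (1.65, SE 0.25, 3.14-fold, adjusted p = 0.0249, and 1.85, adjusted p = 0.0392), with an interaction of 0.20 (adjusted p = 0.964), so the early difference was also measured at 6 weeks. Its 4-week call was lost without any one of the 4-week rats, at differences of 1.51 to 1.80. Dnm2 was at 4.03 and 3.79 against 3.94 and 4.01, which overlapped (-0.07, SE 0.08, adjusted p = 0.538), and its probe set was dim. Ctsl, the protease cathepsin L, was at 13.26 and 13.45 against 12.93 and 13.25 (0.27, SE 0.16, adjusted p = 0.266). The first Dahl rat and the second SHR rat nearly met, and the second probe set of Ctsl gave 0.57 (adjusted p = 0.0434). In the study's qPCR Ctsl mRNA was higher in Dahl than in SHR at all ages tested. In the study's own list of cytoskeleton genes, chosen on these arrays and so no independent evidence of a direction, 14 of 24 were higher and 1 lower. Calls made up 62.5% of that list, beside 13.9% of all genes. The 14 became 3 without the second 4-week rat of either strain and 5 without the first 4-week Dahl rat. They became 6 without either 6-week SHR rat and 7 without the first 4-week SHR rat.

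The remaining lists gave these calls at 4 weeks, to be read beside the 7.88% of all genes that were higher and 6.06% that were lower in Dahl. Of 36 genes of actin assembly 11 were higher in 4-week Dahl and none lower, of 26 microtubule genes 8 and 1, of 31 focal adhesion genes 6 and 1, and of 33 endocytosis genes 3 and none (9.09%). Mesangial and smooth muscle markers had 7 higher and 2 lower of 19, parietal cell and injury markers 4 and none of 15, and striated muscle genes 4 and none of 14, while none of 6 erythroid genes was called. Tubb4b, a beta-tubulin, was at 10.64 and 10.55 in Dahl and 9.62 and 9.65 in SHR (0.96, SE 0.08, adjusted p = 0.00864) and overlapped at 6 weeks. The 11 actin assembly genes were 1 without the second 4-week Dahl rat, 3 without the first, the second 4-week SHR rat or either 6-week SHR rat, and 7 without the first 4-week SHR rat. Without the second 4-week Dahl rat the higher calls were also 3 for microtubule genes, none for focal adhesion and 1 each for mesangial, parietal and striated muscle genes. Complement genes had 7 higher and 1 lower of 19, chemokines and adhesion molecules 6 and 1 of 32, lysosomal genes 4 and none of 24, and coagulation genes 3 and none of 25. Of the signalling lists, 6 of 33 genes of the TGF-beta and BMP pathways were higher and 2 lower, 3 of 37 of the Wnt, Notch and hedgehog pathways were higher, and growth factors and their receptors had 5 higher and 4 lower of 41. Heat shock and endoplasmic reticulum stress genes had 5 higher and 2 lower of 29, immediate early genes 3 and 1 of 27, vasoactive genes 3 and 3 of 31, glutathione and aldo-keto genes 4 and 5 of 34, glycolysis and hypoxia genes 3 and 1 of 25, and ion and water transport genes 1 and 1 of 25. Without the second 4-week Dahl rat none was higher among growth factor, glutathione, coagulation, glycolysis or ion transport genes, 1 was higher among complement genes, and 2 each among chemokine, TGF-beta, vasoactive and heat shock genes. Over all single arrays left out, the higher calls ran from 0 to 6 for growth factors, 0 to 5 for coagulation, 0 to 4 for glutathione and endocytosis, 0 to 2 for glycolysis, 1 to 3 for immediate early genes and 2 to 8 for heat shock genes. The lower calls ran from 2 to 10 for glutathione and from 0 to 8 for ion transport genes. Among the vasoactive genes Agtr1b, an angiotensin receptor, was at 9.60 and 10.13 against 6.85 and 6.99 at 4 weeks, without overlap (2.94, SE 0.18, 7.69-fold, adjusted p = 0.00471). At 6 weeks it was 1.19 higher (adjusted p = 0.0459), without the interaction being called.

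The largest rises at 4 weeks were mostly seen at 6 weeks too. Of the 12 largest rises 11 were called at both ages: the class II genes RT1-Bb and RT1-Ba, Hhip, which binds hedgehog proteins, Bmp6, a growth factor of iron balance, its coreceptor Hjv, the matrix proteoglycan gene Ogn, the sarcomere gene Myom2, and Slc17a3, Mamdc2, Ifgga2l1 and Synpo2l. Isg15 was the other. Hhip, for example, was at 7.73 and 7.95 against 2.59 and 2.50 at 4 weeks and at 7.64 and 8.14 against 2.79 and 2.59 at 6 weeks, apart by 5.30 (SE 0.19, adjusted p = 0.00207) and 5.20. No fold is given, since the 4-week SHR values lay at the level of the dimmest of the 4 groups of probe sets. Bmp6 was at 8.51 and 8.76 against 4.30 and 3.82, then 9.21 and 9.55 against 6.63 and 6.55: the strains stayed apart while the difference went from 4.58 (SE 0.21, adjusted p = 0.00297) to 2.79, without the interaction being called (adjusted p = 0.111). The other probe sets of RT1-Ba and RT1-Bb did not bear out those 2 rises, since a second RT1-Ba probe set gave -3.14 and the second of RT1-Bb -0.30.

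Of the 12 largest falls 3, Ephx2, Akr1b8 and Acox2, were called at both ages. Ephx2, the soluble epoxide hydrolase gene, was at 4.68 and 5.02 in Dahl and 10.67 and 10.85 in SHR at 4 weeks (-5.91, SE 0.61, 60.0-fold higher in SHR, adjusted p = 0.0123), and -5.62 at 6 weeks. Akr1b8, an aldo-keto reductase, was at 2.96 in both Dahl rats against a mean of 7.15 in SHR (-4.18, SE 0.13, 18.2-fold higher in SHR, adjusted p = 0.00194), and -4.86 at 6 weeks. The groups were apart at both ages in each of the 3. The other 9, among them Dmrtc1c1 at -4.37 (SE 0.40, adjusted p = 0.00987) and -2.42 at 6 weeks, were called at 4 weeks only, and of these S100g, Sult1a1 and Angptl4 passed the interaction. With any single array left out 8 of the 12 rises and 6 of the 12 falls kept their calls. Slc17a3 and Synpo2l lost theirs without any one 4-week rat or 6-week SHR rat, Ifgga2l1 and Dmrtc1c1 without the second 4-week Dahl rat, and Isg15 and Ephx2 without the second 4-week rat of either strain.

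**Figure D5:**
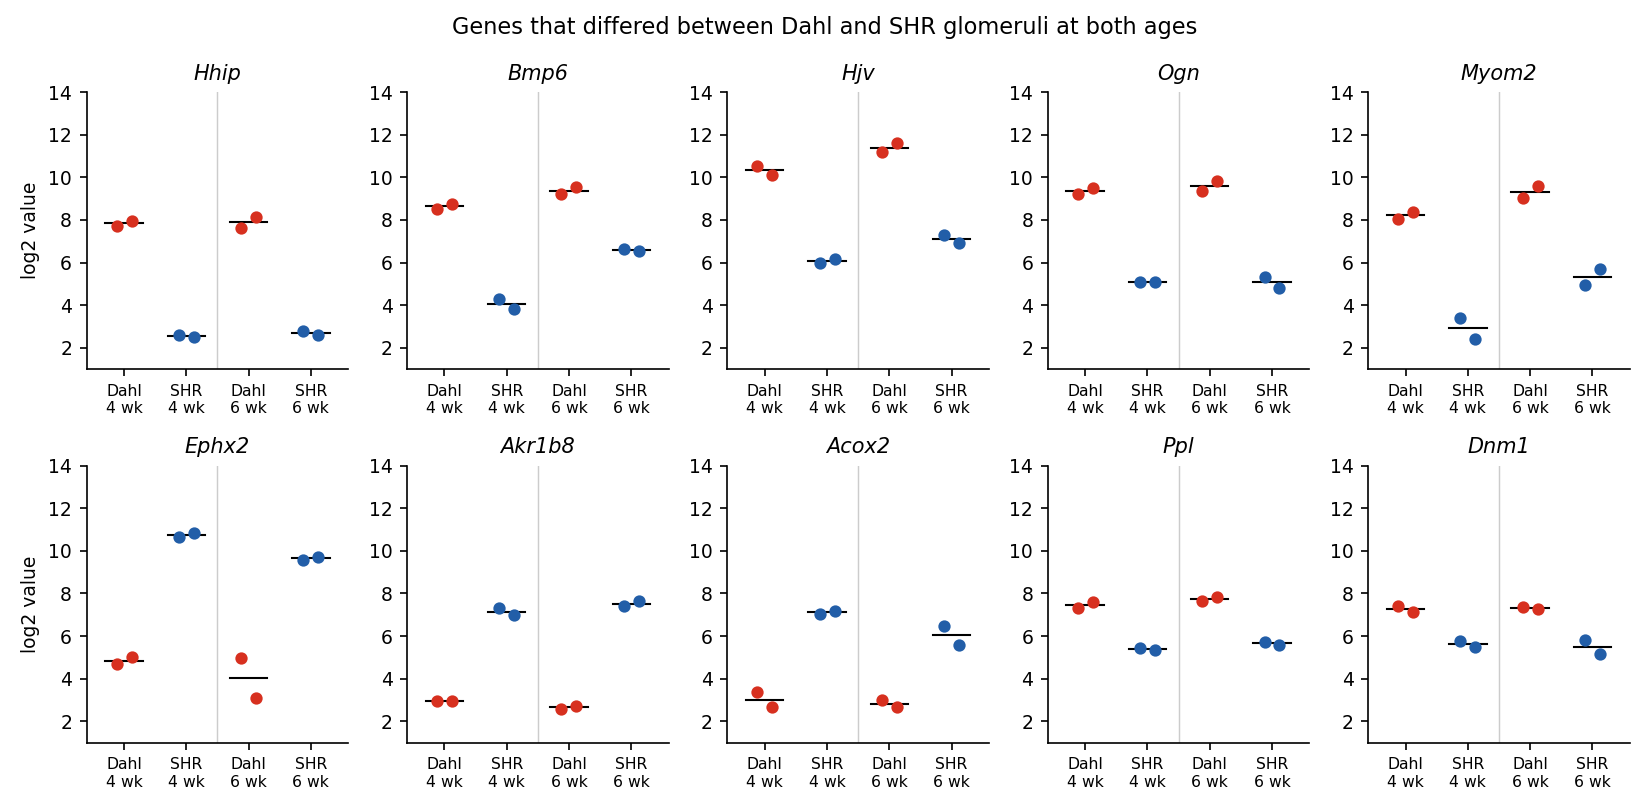
Each panel shows the log2 value of 1 gene in the 8 rats (red, Dahl; blue, SHR; 4 weeks left of the grey line, 6 weeks right), with a bar at the mean of each pair. In all 10 genes the strains do not overlap at either age, and Dahl is higher in all but Ephx2, Akr1b8 and Acox2.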

How the data were processed

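The deposited values are log2 intensities from Affymetrix Rat Genome 230 2.0 arrays, normalized by the authors. Both RMA and GCRMA stand in the submitters' processing notes, without a statement of which one these values come from. Glomerular RNA was isolated with TRIzol and RNeasy columns and labelled as biotin cRNA. No scanner files were used here, and the small number of arrays limits the precision. The 8 arrays had medians of 4.11 to 4.17.

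The values were fitted without further normalization in limma 3.58.1 (R 4.3.3) with a mean for each of the 4 groups and 4 residual degrees of freedom. Differences were taken between strains at each age, between ages in each strain, and between the 2 strain differences (interaction), with Benjamini-Hochberg adjustment over 31042 probe sets. All limma tests were two-sided. Of these probe sets 20826 have 1 gene in GEO's platform annotation, 436 several and 9780 none. A gene was represented by its probe set with the highest mean over the 8 arrays, which gave 14217 genes. The fit was tested on simulated data. The labels number biological replicates without saying that they were separate animals, so p-values measure the spread between these samples.

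Named genes were the 12 largest rises and 12 largest falls called at 4 weeks with a mean of at least 6 in the higher group, up to 10 per direction of those smaller at 6 weeks with the same limit, per list the called genes of smallest p (up to 3), a few genes of the study's subject, and the 3 largest differences called in opposite directions. Members and lists were chosen with earlier results of these data known. A further gene list is not reported here. The fit was repeated with each array left out, on 4-week arrays alone, with a replicate block, after quantile normalization or median centring, with a robust variance trend, on brighter probe sets, at other thresholds, with other probe sets of a gene, and with the methods' t-test. Promoters came from RefSeq (GRCr8).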

Additional observations from a re-analysis of the deposited data

Results flagged for a closer look

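The strain difference at 6 weeks differed from that at 4 weeks, by limma's interaction test after Benjamini-Hochberg adjustment, for 161 probe sets. Among the genes named, the interaction (the 6-week minus the 4-week difference, log2) was positive for the following genes, which were lower in Dahl at 4 weeks: S100g 3.97, Sult1a1 5.05, Angptl4 4.22, Eif4ebp3 2.87, Pnpla2 2.49, Pim3 1.62, Igf1r 1.26, Cracr2b 1.17, Dgka 1.05, Pfkp 1.12, Scnn1a 1.94, Ppara 0.46 and Gstm2 2.84. It was negative for these genes, which were higher in Dahl at 4 weeks: Mcm6 -3.32, Lgals3bp -2.34, Mcm2 -2.56, Lmnb1 -2.91, Zfp367 -2.64, Nrep -2.41, Kif22 -2.56, Idi1 -2.17, Ckap4 -1.36, Cyp51 -1.87, Myh10 -1.30, Myl9 -1.58, Loxl2 -1.30, Mmp2 -2.44, Mmp9 -2.82, Mki67 -3.58, Ccna2 -2.94, RT1-Db1 -1.59, Nuf2 -3.98, Ube2c -3.91 and Cdkn3 -3.83. The second probe set of RT1-Db1 gave 1.03 (adjusted p = 0.212), in the other direction. The interaction uses the same 4-week arrays as the 4-week difference. With single arrays left out, the interaction of Mcm2 kept its call throughout, while each of the others lost its call without at least 1 array.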

How the results depend on the processing

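With 2 rats a group, the counts depended on the variance estimate and on single arrays, and the array number sets the limit. The 3738 probe sets called at 4 weeks (1749 higher, 1989 lower) became 10134 (7616 lower) with an intensity trend and robust variance, 761 (459 and 302) with the 4-week arrays alone, 401 (235 and 166) at an adjusted p of 0.01 and 7595 (2971 and 4624) at 0.10. The methods' t-test gave 9750 (7476 lower) unadjusted and 0 after Benjamini-Hochberg, and brighter probe sets alone gave 1056 lower. Leaving out 1 array gave 768 to 3905 (440 to 1879 higher, 325 to 2026 lower). The 1017 probe sets called at 6 weeks became 8488 with the trend, 65 at 0.01, 4332 at 0.10 and 63 to 3352 with 1 array left out. The 161 with an interaction became 10 at 0.01, 434 at 0.10 and 7 to 540. The 48 genes smaller at 6 weeks became 4 at 0.01, 108 at 0.10, 74 with the mean of all probe sets of a gene, and 1 to 63 with 1 array left out, 1 of them without the first 6-week SHR rat. The 23 called in opposite directions became 64 with the trend, 2 at 0.01, 94 at 0.10 and 2 to 74. The 25 cell cycle genes became 10 with the 4-week arrays alone, 10 at 0.01 and 10 to 23 with 1 array left out. The 6 cholesterol genes became 3, 2 and 2 to 7, and 10 at 0.10. The 17 actomyosin genes became 5, 3 and 3 to 16, and the 18 fasting genes 8, 6 and 6 to 17. The cause of these changes was not tested.

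The replicate numbers pair no samples by the labels, and deviations of same-numbered rats correlated at -0.225 to 0.236. With the replicate number as a block, 2028 probe sets were called at 4 weeks (1133 higher, 895 lower), 339 at 6 weeks and 31 for the interaction, 11 genes were smaller at 6 weeks and 10 opposite, and 10 actomyosin and 11 fasting genes were called.

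Signs turned for Dnm2 without the second 4-week Dahl rat (-0.1924 to 0.0476 with 1 array left out), and with the dimmest probe set of a gene for RT1-Bb (-0.298), RT1-Ba (-0.019), Bmp6 (-0.0236), Lmnb1 (-0.0721), Synpo (-0.1073), Clu (-0.0134), Aif1 (-0.0176), Evl (-0.0366), Cltb (-0.0166), Nid1 (-0.0251), Lama4 (-0.0255), Mmp2 (-0.0275) and Masp1 (-0.1645). Quantile normalization and median centring kept the 4-week count within 1.5 times, at 2794 and 4546.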
